A study of Rattus norvegicus with 15 samples.

Results

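The cytochrome P450 genes of families 1 to 3 were examined in rat liver RNA. Members were the rows of the expression table whose gene symbol begins with Cyp, a family number of 1, 2 or 3, a lower-case subfamily letter and a digit. This rule, which uses no measured value, took 44 of 21576 rows, in 16 subfamilies. The table holds 81 rows beginning with Cyp, and the other 37 fall outside the pattern. Of the 44 members, 37 had enough reads to be tested and 7 did not. P450 enzymes are haem proteins of the endoplasmic reticulum that insert an oxygen atom into their substrates, using electrons passed on by the P450 reductase Por and by cytochrome b5. Families 1 to 3 are the main drug- and toxicant-oxidising P450s of the liver, and several members also hydroxylate steroids, retinoids and fatty acids. Their transcription in hepatocytes is known to depend on xenobiotic-sensing receptors (Ahr, Nr1i2 and Nr1i3), on liver-enriched factors and, for several rat members, on the sex-dependent pattern of growth hormone secretion.

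All rats were male Sprague-Dawley animals, and their age is not given in the labels. CON rats were kept on normal chow. HFD rats received a lipid-raising feed with 2% cholesterol, 8.3% yolk, 7% lard, 16.7% sucrose, 66% base forage, the bile salt sodium cholate at 0.3% and propylthiouracil, an inhibitor of thyroid hormone synthesis, at 0.2%. After 4 weeks of this feed the HFD rats were given saline, and the ZXD rats were given the herbal preparation Zexie Decoction by mouth at 2.2 g/kg per day, for 4 further weeks. HFD and ZXD rats therefore share every component of the feed, propylthiouracil included, and the labels mention no saline for CON. Each group had 10 rats and 5 libraries. Which rats gave the libraries is not stated, so p-values measure the spread between these libraries, which may be technical. A simvastatin group was not analysed here. Total counts ran from 12552449 to 14228052 per library. Levels are given as CPM (counts scaled to a common library size) after TMM scaling, and libraries are listed in the order 1 to 5 within each group. Fold changes are on the log2 scale with their standard errors, and a gene was called at a Benjamini-Hochberg adjusted p under 0.05 in edgeR's quasi-likelihood test over all 13163 genes tested. HFD versus CON and ZXD versus CON share the CON libraries, so each comparison's values stand beside the other's without being independent of it. The hepatocyte markers fixed for this tissue, 10 of 10, were all tested and summed to 183690 to 218950 CPM in CON, 85911 to 128310 CPM in HFD and 71822 to 107580 CPM in ZXD.

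The promoters of the Cyp2c genes are shown because the largest falls among abundant members lay in this subfamily and because Onecut1, a liver-enriched factor described as a regulator of Cyp2c12, fell more than the other tested factors of its list. The 4 lines give, from RefSeq (build GRCr8), the 220 bases from 250 to 31 bases before the annotated start, read 5′ to 3′ on the gene's strand. Capitals mark the core ATCAAT bound by Onecut factors, searched on both strands as ATCAAT and its reverse complement ATTGAT. Cyp2c11 lies on the plus strand (chr1:246174966-246175185) and holds no match. Cyp2c7 lies on the plus strand (chr1:247966144-247966363), with a match that begins at -71. Cyp2c12 lies on the minus strand (chr1:248677065-248677284), with matches at -243 and -71. Cyp2c13 lies on the minus strand (chr1:248787219-248787438), with a match at -60.
Cyp2c11: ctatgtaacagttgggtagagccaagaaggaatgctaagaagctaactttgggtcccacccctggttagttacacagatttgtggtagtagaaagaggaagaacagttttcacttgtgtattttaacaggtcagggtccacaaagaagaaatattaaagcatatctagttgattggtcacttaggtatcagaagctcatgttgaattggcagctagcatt
Cyp2c7: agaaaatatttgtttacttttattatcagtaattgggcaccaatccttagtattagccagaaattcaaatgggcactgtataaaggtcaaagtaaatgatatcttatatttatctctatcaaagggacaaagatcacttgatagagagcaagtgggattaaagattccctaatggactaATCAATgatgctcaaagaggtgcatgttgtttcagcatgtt
Cyp2c12: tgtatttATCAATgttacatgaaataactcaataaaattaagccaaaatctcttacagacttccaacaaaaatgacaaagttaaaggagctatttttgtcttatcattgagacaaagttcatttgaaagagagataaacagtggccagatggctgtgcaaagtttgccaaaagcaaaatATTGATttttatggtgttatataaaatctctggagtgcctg
Cyp2c13: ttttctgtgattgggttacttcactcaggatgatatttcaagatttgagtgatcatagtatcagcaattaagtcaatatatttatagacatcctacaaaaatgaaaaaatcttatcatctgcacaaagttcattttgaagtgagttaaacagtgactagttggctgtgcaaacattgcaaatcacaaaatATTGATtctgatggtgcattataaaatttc

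A promoter window was found for 39 of the 44 members, 41 of which matched RefSeq by symbol and 1 by synonym. These 39 members had 45 windows, since 3 members have more than 1. The motif occurred in 7 of the 45 windows (15.6%), which belong to 5 members, Cyp1a2, Cyp2c7, Cyp2c12, Cyp2c13 and Cyp3a73 (3 of its 5 windows), and in 6.51% of all 33469 windows of the same length. Among the Cyp2c members with a window, 3 of 7 held it. Cyp2c11, which fell the most among the abundant members, had none in this window, and Cyp1a2, Cyp2c12 and Cyp3a73, which hold it, were not called in any comparison. The match is a description of letters, and the motif was chosen with the fall of Onecut1 known. Between members of the same subfamily, taking the first listed window of each, the windows were the same at 41.5% to 89.3% of aligned positions over 65 pairs, with a median of 52.2%. Those of Cyp2d1 and Cyp2d3 (89.3%) and of Cyp3a2 and Cyp3a23/3a1 (76.6%) were closest, while the other Cyp2d pairs lay at 43.9% to 68.2% and the other Cyp3a pairs at 45.3% to 66.0%.

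In HFD versus CON, 14 of the 37 tested members fell, 3 rose and 20 were not called. Over all genes tested, 21.0% were called in this comparison, 10.9% lower and 10.0% higher. The members that fell were Cyp2b3, Cyp2c7, Cyp2c11, Cyp2c13, Cyp2d1 to Cyp2d4, Cyp2f4, Cyp2j3, Cyp2r1, Cyp2t1, Cyp3a71-ps and Cyp3a85-ps, and those that rose were Cyp2c24, Cyp2j10 and Cyp3a62. The median log2 fold change was -0.36 over the tested members and 0.02 over all genes tested. The 5 HFD libraries lay wholly below the 5 CON libraries for 11 members and wholly above them for 1, against 8.46% and 6.59% of all genes. In ZXD versus CON, 16 members fell and 3 rose, where 32.7% of all genes were called, 14.8% lower and 17.9% higher. The same 14 members fell, with Cyp2d5 and Cyp3a9 added, and those that rose were Cyp1a1, Cyp2j10 and Cyp3a62. The median was -0.65 over the members and 0.03 over all genes. The groups did not overlap for 15 members in the lower direction and 3 in the higher, against 9.79% and 8.20% of all genes. Between ZXD and HFD, no member was called, and 0% of all genes were.

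**Figure D1:**
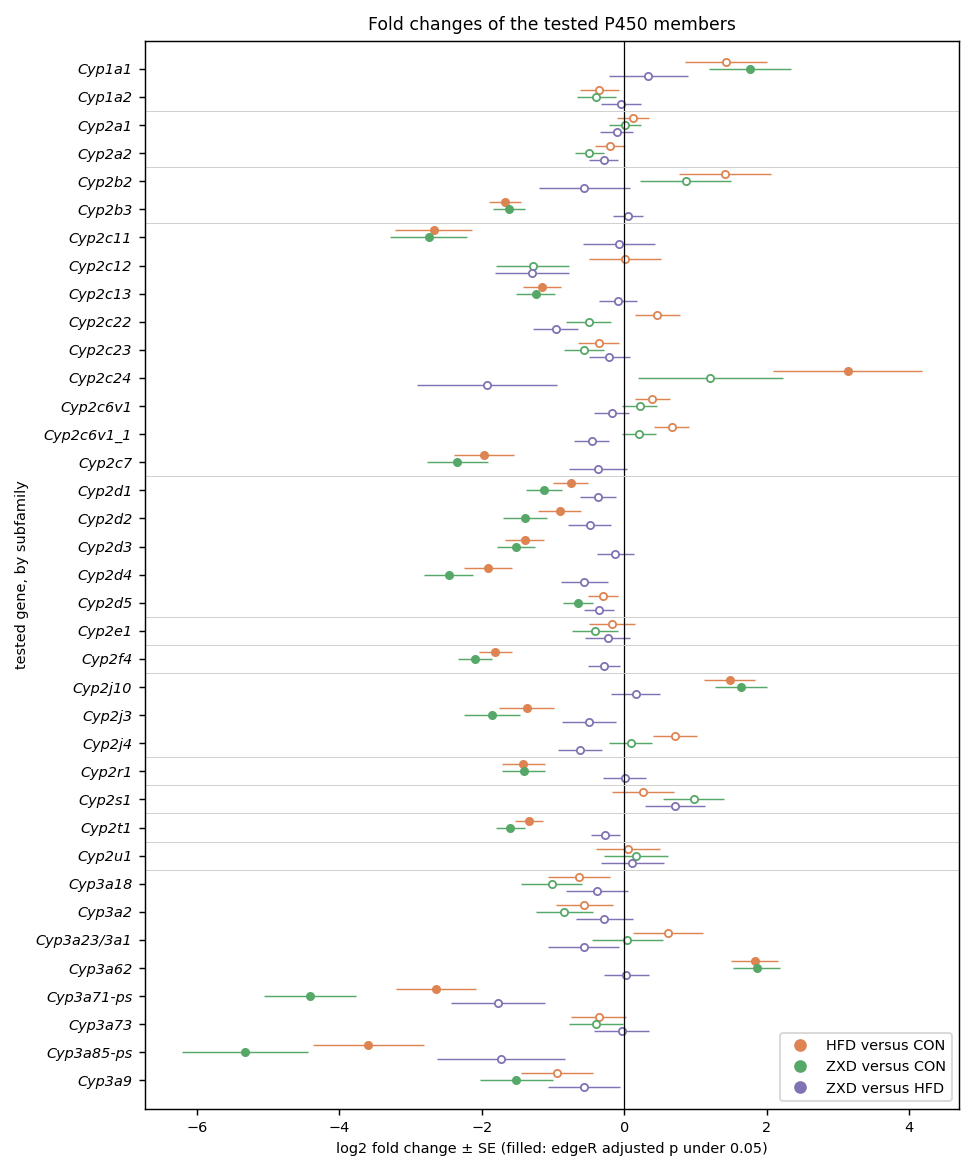
Log2 fold change with its standard error (bars) for the 37 tested members, by subfamily, in HFD versus CON, ZXD versus CON and ZXD versus HFD; filled points were called at an adjusted p under 0.05. The orange and green points of Cyp2c11 stand at -2.67 and -2.74, those of Cyp3a62 at 1.83 and 1.86, and no purple point is filled.

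Markers of other cells moved with these groups. Of 18 macrophage and Kupffer cell markers, 7 rose in HFD versus CON and 15 in ZXD versus CON, and their summed level was 381 to 1080 CPM in CON, 667 to 4193 CPM in HFD and 1031 to 7897 CPM in ZXD. A few genes carried much of this sum: in ZXD 4, Cd74, Lyz2 and Gpnmb stood at 2766, 1845 and 1420 CPM. Not every marker followed it: the means of Vsig4, Cd163 and Clec4f were 40.4, 40.6 and 147 CPM in CON and 19.0, 25.1 and 140 CPM in HFD. T and B cell markers rose for 5 and 7 of the 7 tested, and their sum was 11.1 to 32.7 CPM in CON, 25.3 to 85.5 CPM in HFD and 35.4 to 124 CPM in ZXD. Of the 10 hepatocyte markers, 4 fell in HFD versus CON and 6 in ZXD versus CON. Cholangiocyte markers rose for 4 and 2 of 6, endothelial markers for 0 and 3 of 6, and stellate cell and fibroblast markers for 0 and 1 of 7, with 1 of these (Lrat) lower in HFD versus CON. The summed levels were 16.9 to 26.8 CPM in CON, 49.9 to 93.2 CPM in HFD and 38.8 to 83.4 CPM in ZXD for cholangiocytes, 64.7 to 299 CPM in CON, 71.9 to 281 CPM in HFD and 308 to 468 CPM in ZXD for endothelium and 199 to 403 CPM in CON, 145 to 543 CPM in HFD and 179.8 to 546 CPM in ZXD for stellate cells and fibroblasts. No marker of these lists was at 0 in every library of a group. Their part in the P450 values was not tested, and in whole liver fewer hepatocytes and less RNA per hepatocyte cannot be told apart. Without both HFD 2 and HFD 5, the HFD libraries with the highest macrophage sums, 11 members fell and 2 rose in HFD versus CON. In that fit 7.96% of all genes were called in this comparison, against 21.0% with all libraries.

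The scale used also moved with the groups: TMM factors were 0.793 to 0.867 in CON and 1.01 to 1.28 in HFD and ZXD. When library totals were the scale, the median log2 fold change over all tested genes became 0.44 for HFD versus CON (0.02 under TMM) and 0.46 for ZXD versus CON (0.03 under TMM). The members' medians moved to 0.06 and -0.25, so the sign of the first depends on the scale, while both stayed below the median of all genes. On that scale 11 members fell and 10 rose in HFD versus CON, where 3.84% of all genes fell and 40.9% rose, and 14 fell and 6 rose in ZXD versus CON, where 4.77% fell and 45.9% rose.

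**Figure D2:**
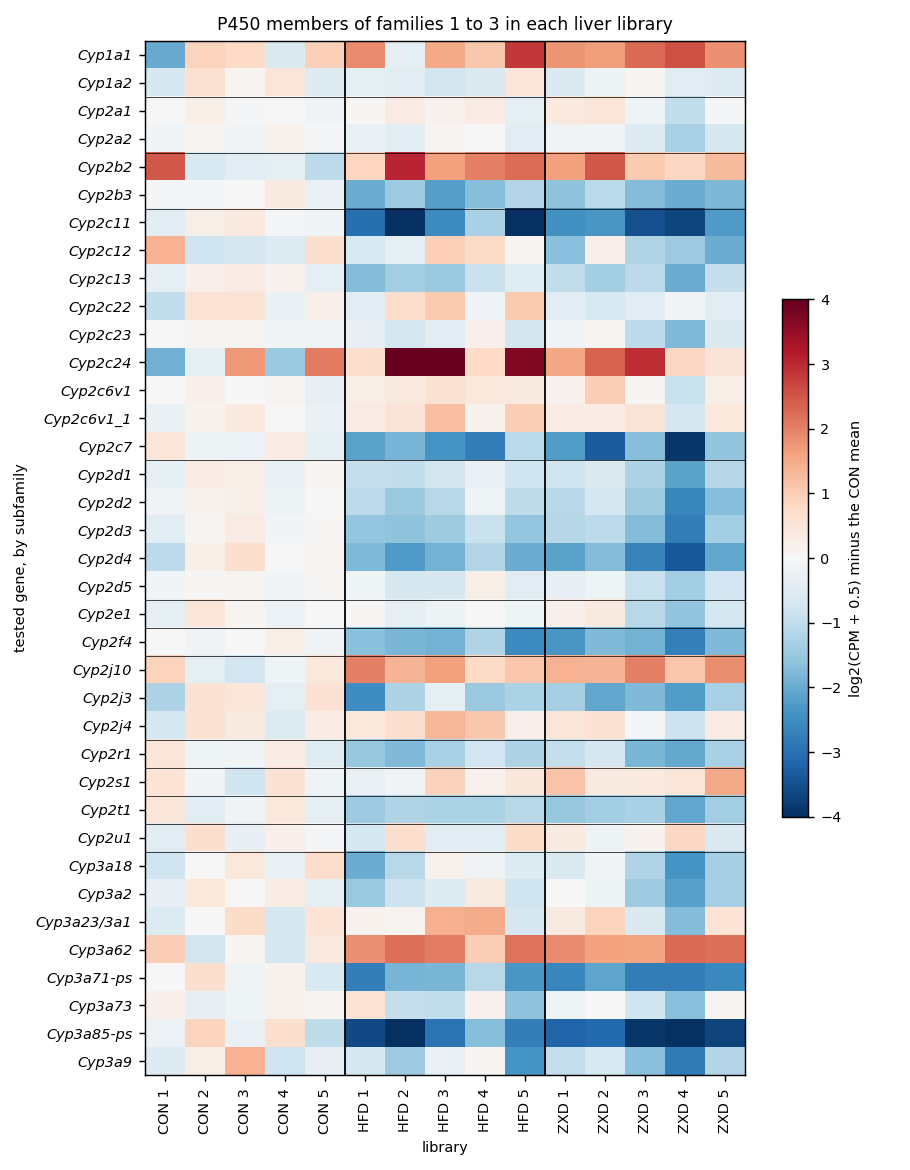
Each cell is the log2(CPM + 0.5) of a tested member in 1 library minus the mean of the 5 CON libraries, with members grouped by subfamily (horizontal lines) and libraries by group (vertical lines). The blue rows across HFD and ZXD are led by Cyp2c11, Cyp2c7, Cyp2b3, Cyp2d4, Cyp2f4 and the pseudogenes Cyp3a71-ps and Cyp3a85-ps. The red rows are led by Cyp2c24, Cyp3a62, Cyp1a1, Cyp2b2 and Cyp2j10. Of these, Cyp2b2 was not called, Cyp2c24 was called in HFD versus CON alone and Cyp1a1 in ZXD versus CON alone.

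Per length, Cyp2e1 had the highest mean FPKM of all members in every group, at 4604 ± 1124 in CON, 5458 ± 658 in HFD and 4528 ± 2279 in ZXD. Cyp3a2 followed in CON. Cyp3a23/3a1 held the second place by mean FPKM in HFD, at 2370 ± 1388 against 1874 ± 899 for Cyp3a2. In ZXD the means were nearly equal, at 1561 ± 802 for Cyp3a23/3a1 and 1517 ± 847 for Cyp3a2. Cyp3a2 was the higher of the pair in ZXD 1, ZXD 3 and ZXD 4, so their order in ZXD was not settled. Cyp2c11 ranked 5 in CON, 15 in HFD and 14 in ZXD by mean FPKM. FPKM takes gene length and sequencing total into account but no TMM factor. The rows of Cyp2c7 and Cyp2c6v1_1 have lengths of 477 and 330 bases, shorter than the other Cyp2c rows, so their per-length levels are uncertain.

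The 44 members together took 3.18% ± 0.476 in CON, 3.24% ± 0.588 in HFD and 2.59% ± 0.932 in ZXD (SD, n = 5) of all counts. On the TMM scale their summed level was 38746 ± 5927 CPM in CON, 29523 ± 5947 in HFD and 23997 ± 10039 in ZXD (SD, n = 5). The HFD mean lay below the CON mean on the TMM scale and at about the same share of counts, so the direction of the sum between these groups depends on the scale. ZXD 4 had the lowest sum of the 15 libraries, 11280 CPM, beside the highest macrophage sum, 7897 CPM. The ZXD libraries spread from this value up to 35938 CPM in ZXD 2. The Cyp2c subfamily held the largest mean sum in every group, at 13582 ± 1913 CPM in CON, 8643 ± 1304 in HFD and 7132 ± 2081 in ZXD (SD, n = 5). The Cyp3a subfamily summed to 8846 ± 1627 CPM in CON, 8026 ± 3989 in HFD and 6034 ± 3193 in ZXD (SD, n = 5), and Cyp2d to 3516 ± 538 CPM in CON, 1835 ± 566 in HFD and 1414 ± 554 in ZXD (SD, n = 5).

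**Figure D3:**
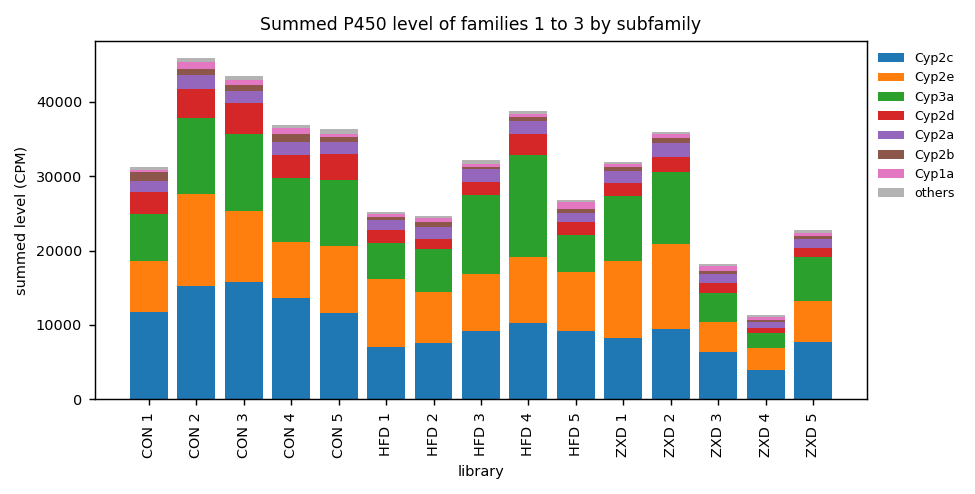
Bars give the summed level of all 44 members in each library (CPM), stacked by subfamily. The CON bars lie between 31166 and 45886 CPM, the HFD bars between 24671 and 38722 CPM and the ZXD bars between 11280 and 35938 CPM, and Cyp2c, Cyp2e and Cyp3a make up most of each bar.

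In the Cyp2c subfamily, with 9 members tested, 3 fell and 1 rose in HFD versus CON, and 3 fell in ZXD versus CON. Cyp2c11 is the main male-specific P450 of adult rat liver and hydroxylates testosterone. Cyp2c11 stood at 2313, 3585, 4026, 2993 and 2760 CPM in CON, 383, 147, 523, 1261 and 142 CPM in HFD and 576, 608, 267, 244 and 646 CPM in ZXD. Every HFD and ZXD library lay below the lowest CON library, and HFD 4 stood apart from the other HFD libraries. Its means were 3135 ± 677 CPM (SD, n = 5) in CON, 491 ± 459.9 in HFD and 468 ± 196 in ZXD, and the log2 fold change was -2.67 ± 0.54 (adjusted p = 0.004) for HFD versus CON and -2.74 ± 0.54 (adjusted p = 0.00274) for ZXD versus CON. HFD libraries were thus 6.38-fold and ZXD libraries 6.70-fold lower than CON. Without HFD 4 the fall in HFD was 10.5-fold (log2 -3.39). Cyp2c13, also male-specific, fell less. Cyp2c13 stood at 2761, 4067, 4439, 3972 and 2689 CPM in CON, 1044, 1348, 1258, 1873 and 2531 CPM in HFD and 1766, 1359, 1681, 894 and 1862 CPM in ZXD. All 5 HFD and all 5 ZXD libraries lay below the lowest CON library, although HFD 5 came close to it. The means were 3586 ± 805 CPM (SD, n = 5) in CON, 1611 ± 598 in HFD and 1513 ± 394 in ZXD, with log2 fold changes of -1.15 ± 0.27 (adjusted p = 0.00856) for HFD versus CON and -1.25 ± 0.27 (adjusted p = 0.00421) for ZXD versus CON. Cyp2c7 is a retinoic acid hydroxylase that is more abundant in female than in male liver. Cyp2c7 stood at 1026, 636, 631, 926 and 574 CPM in CON, 167, 204, 142, 107 and 346 CPM in HFD and 157, 72.5, 225, 49.4 and 244 CPM in ZXD. The CON libraries again lay above all others. Its means were 759 ± 203 CPM (SD, n = 5) in CON, 193 ± 92.2 in HFD and 149.5 ± 87.5 in ZXD, and its log2 fold change was -1.97 ± 0.42 (adjusted p = 0.00563) for HFD versus CON and -2.34 ± 0.43 (adjusted p = 0.00181) for ZXD versus CON.

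Cyp2c12 is the female-specific steroid sulphate hydroxylase, and its level in these males was low. Cyp2c12 stood at 92.3, 20.2, 21.8, 24.1 and 54.9 CPM in CON, 22.9, 26.5, 68.8, 59.9 and 36.4 CPM in HFD and 10.7, 40.7, 15.1, 12.6 and 8.48 CPM in ZXD. The 3 groups overlapped, and CON 1 was the highest of all libraries. Its means were 42.7 ± 31.2 CPM (SD, n = 5) in CON, 42.9 ± 20.4 in HFD and 17.5 ± 13.2 in ZXD. The log2 fold change was 0.01 ± 0.50 (adjusted p = 0.995) for HFD versus CON and -1.29 ± 0.52 (adjusted p = 0.0678) for ZXD versus CON, and neither was called. ZXD versus CON passed with DESeq2, and also without ZXD 2, where it was -1.88 with an adjusted p of 0.00921. Cyp2c22, known for retinoid metabolism, was not called in any comparison on the TMM scale. Cyp2c22 stood at 435, 1264, 1257, 715 and 996 CPM in CON, 651, 1413, 1809, 800.0 and 1775 CPM in HFD and 635, 573, 644, 807 and 647 CPM in ZXD. Means were 934 ± 358 CPM (SD, n = 5) in CON, 1290 ± 540.5 in HFD and 661 ± 86.7 in ZXD, and log2 fold changes were 0.47 ± 0.31 (adjusted p = 0.296) for HFD versus CON and -0.50 ± 0.31 (adjusted p = 0.241) for ZXD versus CON. On library totals HFD versus CON passed, at 0.88 (adjusted p = 0.0386). Cyp2c23 is the arachidonic acid epoxygenase of the subfamily. Cyp2c23 stood at 3434, 3637, 3577, 3131 and 3068 CPM in CON, 2681, 2058, 2518, 3843 and 2041 CPM in HFD and 3062, 3438, 1625, 993 and 2264 CPM in ZXD. Means were 3369 ± 258 CPM (SD, n = 5) in CON, 2628 ± 735 in HFD and 2276 ± 1005 in ZXD. Log2 fold changes of -0.36 ± 0.28 (adjusted p = 0.376) for HFD versus CON and -0.57 ± 0.28 (adjusted p = 0.139) for ZXD versus CON were not called, but ZXD versus CON passed without ZXD 2. Cyp2c6v1 is a constitutive member known to respond to phenobarbital. Cyp2c6v1 stood at 1576, 1777, 1536, 1651 and 1239 CPM in CON, 1860, 2045, 2300, 2067 and 1965 CPM in HFD and 1734, 3054, 1598, 839 and 1829 CPM in ZXD. Every HFD library lay above every CON library. Means were 1556 ± 199 CPM (SD, n = 5) in CON, 2048 ± 163 in HFD and 1811 ± 797 in ZXD, and log2 fold changes of 0.40 ± 0.25 (adjusted p = 0.259) for HFD versus CON and 0.22 ± 0.25 (adjusted p = 0.527) for ZXD versus CON were not called. On library totals both passed, at 0.82 and 0.61, and HFD versus CON also passed with the 2 groups fitted alone. Its short numbered copy Cyp2c6v1_1 ranged over 160.4 to 255 CPM in CON, 215 to 447 CPM in HFD and 121 to 276 CPM in ZXD and was not called. Reads shared between these 2 rows may have been split by the counter.

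Cyp2c24 was the only Cyp2c member that rose in HFD versus CON. Cyp2c24 stood at 0, 0.981, 5.8, 0.177 and 7.58 CPM in CON, 2.52, 43.2, 55.5, 2.79 and 24.3 CPM in HFD and 5.09, 9.36, 14.2, 2.87 and 2.25 CPM in ZXD. HFD 2, HFD 3 and HFD 5 were high, while HFD 1 and HFD 4 lay within the CON range. Its means were 2.91 ± 3.53 CPM (SD, n = 5) in CON, 25.7 ± 23.8 in HFD and 6.75 ± 5 in ZXD. The log2 fold change was 3.14 ± 1.05 (adjusted p = 0.0465) for HFD versus CON and 1.21 ± 1.02 (adjusted p = 0.384) for ZXD versus CON. The call in HFD versus CON was lost when any 1 of 10 libraries was left out (CON 1 to 4, HFD 2, 3 and 5, ZXD 1, 3 and 5), with limma voom, without a filter on low counts, with the 2 groups fitted alone and without both HFD 2 and HFD 5; over all alternatives its adjusted p ran from 0.0173 to 0.188. Without CON 5 its fold in HFD moved from 8.80 to 14.9. Within the subfamily, the share of read counts does not depend on the scaling between libraries. A share can rise because another member of the subfamily falls, without a rise in the gene's own level. Cyp2c11 took 22.9% ± 2.25 in CON, 5.39% ± 4.33 in HFD and 6.44% ± 1.49 in ZXD (SD, n = 5) of the Cyp2c counts. Cyp2c6v1 took 11.5% ± 1.37 in CON, 24% ± 3.09 in HFD and 24.7% ± 4.67 in ZXD (SD, n = 5). In these shares the CON libraries did not overlap the HFD or ZXD libraries, lower for Cyp2c6v1 and higher for Cyp2c11. Cyp2c23 took 25.1% ± 2.72 in CON, 30.5% ± 7.01 in HFD and 30.8% ± 5.91 in ZXD (SD, n = 5), with overlapping groups, and held the largest mean share in HFD and ZXD.

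**Figure D4:**
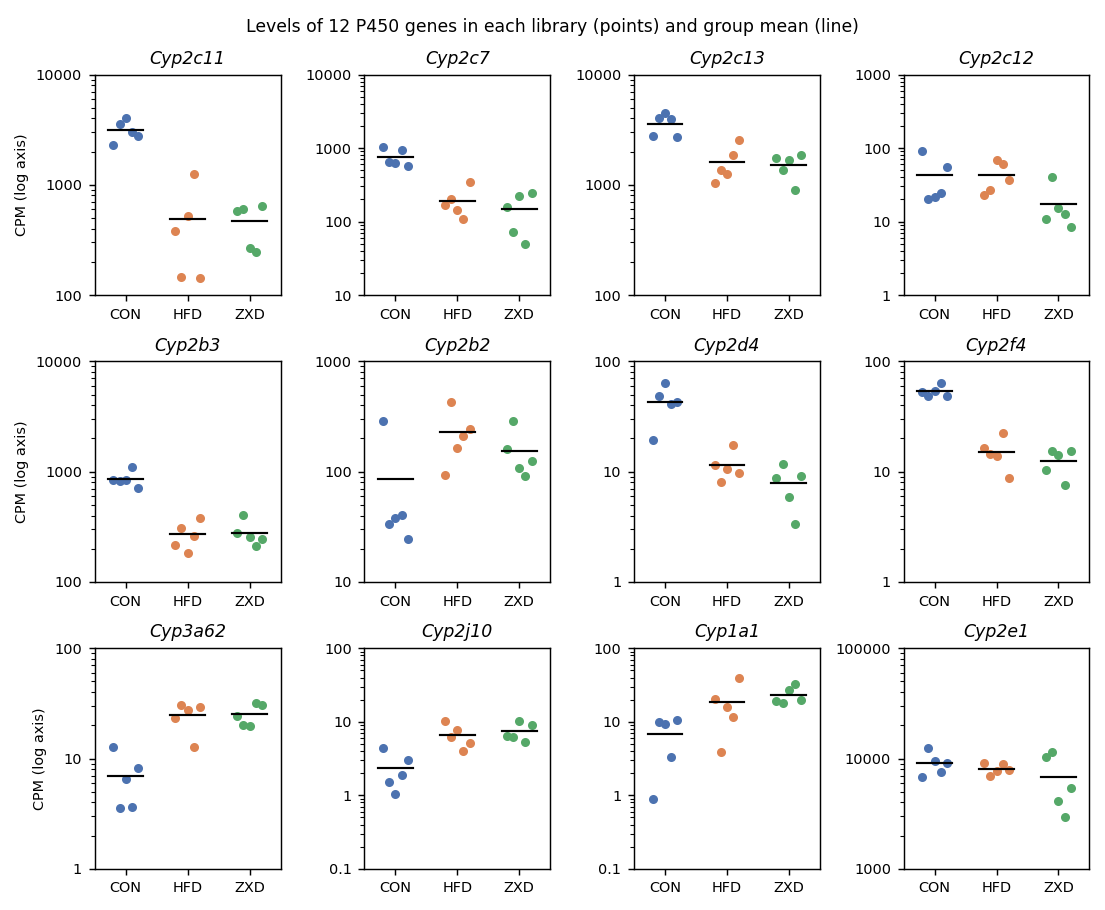
Each point is 1 library and each line the mean of 5, on a log axis of CPM, for 12 members. CON points lie above all HFD and ZXD points for Cyp2c11, Cyp2c7, Cyp2c13, Cyp2b3, Cyp2d4 and Cyp2f4; CON 1 stands apart for Cyp2b2, at 289 CPM; the groups overlap for Cyp2e1 and Cyp2c12.

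In the Cyp3a subfamily, with 8 members tested, 2 fell and 1 rose in HFD versus CON, and 3 fell and 1 rose in ZXD versus CON. The abundant members Cyp3a2, Cyp3a23/3a1 and Cyp3a18 were not called in either. Cyp3a2 is the male-predominant testosterone hydroxylase of adult liver. Cyp3a2 stood at 3965, 6768, 4997, 6153 and 3811 CPM in CON, 1799, 2821, 3517, 6409 and 2889 CPM in HFD and 5013, 4380, 1829, 1116 and 2014 CPM in ZXD. HFD 4 reached the CON range while HFD 1 lay lowest in its group, and ZXD 4 was the lowest library. Means were 5139 ± 1308 CPM (SD, n = 5) in CON, 3487 ± 1746 in HFD and 2871 ± 1715 in ZXD, and log2 fold changes were -0.56 ± 0.40 (adjusted p = 0.326) for HFD versus CON and -0.84 ± 0.40 (adjusted p = 0.122) for ZXD versus CON. Without ZXD 1 the second passed, at the edge of the threshold (adjusted p = 0.0468). Cyp3a23/3a1 is the member best known for induction through the pregnane X receptor (Nr1i2). Cyp3a23/3a1 stood at 1514, 2176, 3671, 1368 and 3258 CPM in CON, 2465, 2406, 5976, 6150 and 1389 CPM in HFD and 2874, 4134, 1497, 662 and 3211 CPM in ZXD. HFD 3 and HFD 4 were the highest libraries, and the groups overlapped. Means were 2398 ± 1031 CPM (SD, n = 5) in CON, 3677 ± 2220 in HFD and 2475 ± 1387 in ZXD, with log2 fold changes of 0.62 ± 0.49 (adjusted p = 0.383) for HFD versus CON and 0.05 ± 0.49 (adjusted p = 0.955) for ZXD versus CON. Cyp3a18 is another male-predominant steroid hydroxylase. Cyp3a18 stood at 513, 890.3, 1204, 731 and 1464 CPM in CON, 229, 414, 1005, 808 and 632 CPM in HFD and 604, 838, 393, 176 and 355 CPM in ZXD. Means were 960.4 ± 378 CPM (SD, n = 5) in CON, 617 ± 308 in HFD and 473 ± 255 in ZXD. Its log2 fold changes of -0.64 ± 0.43 (adjusted p = 0.298) for HFD versus CON and -1.02 ± 0.43 (adjusted p = 0.0838) for ZXD versus CON were not called, but ZXD versus CON passed with DESeq2 and without ZXD 2.

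Cyp3a62, known from the intestine as well as the liver, rose in both comparisons with CON. Cyp3a62 stood at 12.7, 3.57, 6.56, 3.64 and 8.26 CPM in CON, 23.4, 30.8, 27.5, 12.7 and 29.6 CPM in HFD and 24.3, 20.2, 19.6, 31.6 and 30.7 CPM in ZXD. HFD 4 and CON 1 stood at nearly the same level, and all ZXD libraries lay above all CON libraries. The means were 6.95 ± 3.8 CPM (SD, n = 5) in CON, 24.8 ± 7.32 in HFD and 25.3 ± 5.65 in ZXD, and the log2 fold change was 1.83 ± 0.33 (adjusted p = 0.00209) for HFD versus CON and 1.86 ± 0.33 (adjusted p = 0.00157) for ZXD versus CON. Cyp3a9 is more abundant in female rat liver. Cyp3a9 stood at 89.9, 152, 334, 74 and 101 CPM in CON, 80.3, 46, 103, 136 and 24.7 CPM in HFD and 66.3, 83.1, 39.5, 17.7 and 56.5 CPM in ZXD. CON 3 was the highest library and the groups overlapped. Means were 150.2 ± 107 CPM (SD, n = 5) in CON, 77.9 ± 44.2 in HFD and 52.6 ± 25.1 in ZXD, with log2 fold changes of -0.95 ± 0.51 (adjusted p = 0.188) for HFD versus CON and -1.51 ± 0.51 (adjusted p = 0.0355) for ZXD versus CON. The ZXD call was lost on library totals, without a filter, with limma voom, with the replicate block and without any 1 of CON 2, CON 3, ZXD 3, ZXD 4 and ZXD 5; over all alternatives its adjusted p ran from 0.00788 to 0.132. The annotated pseudogene Cyp3a85-ps fell the most of all members on the log2 scale. Cyp3a85-ps stood at 6.64, 15.1, 6.46, 12.7 and 3.66 CPM in CON, 0.194, 0, 0.591, 2.11 and 0.746 CPM in HFD and 0.413, 0.468, 0.0699, 0 and 0.145 CPM in ZXD. HFD 4 was the highest of the diet libraries, and all lay below the lowest CON library. The means were 8.9 ± 4.77 CPM (SD, n = 5) in CON, 0.729 ± 0.83 in HFD and 0.219 ± 0.209 in ZXD, with log2 fold changes of -3.59 ± 0.78 (adjusted p = 0.00593) for HFD versus CON and -5.33 ± 0.89 (adjusted p = 0.00104) for ZXD versus CON. HFD 2 and ZXD 4 had no read, and a count of 3 corresponds to 0.183 to 0.285 CPM, so the size of the fitted change is uncertain, and without HFD 4 the HFD value was -4.51. Cyp3a71-ps also fell in both and ranged over 2.04 to 5.53 CPM in CON, 0.0647 to 1.3 CPM in HFD and 0.061 to 0.39 CPM in ZXD. Cyp3a73 ranged over 142 to 205 CPM in CON, 58.1 to 261 CPM in HFD and 55.8 to 189.6 CPM in ZXD and was not called. Reads of pseudogenes and of related Cyp3a genes may be shared with the coding genes. Cyp3a2 took 58.5% ± 12.4 in CON, 44.5% ± 9.79 in HFD and 47.7% ± 8.91 in ZXD (SD, n = 5) of the Cyp3a counts, and Cyp3a23/3a1 took 26.7% ± 9.05 in CON, 44.1% ± 10.7 in HFD and 40.3% ± 9.25 in ZXD (SD, n = 5). Both shares overlapped between the groups.

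In the Cyp2d subfamily 4 of the 5 members fell in HFD versus CON and 5 of 5 in ZXD versus CON. No Cyp2d member had a positive fold change in a comparison with CON under any alternative, except Cyp2d5 in HFD versus CON when library totals were the scale (0.12). Cyp2d1 is the debrisoquine hydroxylase of the rat. Cyp2d1 stood at 352, 586, 561, 385 and 493 CPM in CON, 244, 233, 279, 387 and 267 CPM in HFD and 266, 313, 197, 104 and 213 CPM in ZXD. HFD 4 lay inside the CON range. Its means were 475 ± 104 CPM (SD, n = 5) in CON, 282 ± 61.2 in HFD and 219 ± 78.6 in ZXD, and its log2 fold change was -0.75 ± 0.25 (adjusted p = 0.0453) for HFD versus CON and -1.12 ± 0.25 (adjusted p = 0.00517) for ZXD versus CON. Cyp2d2 was the most abundant member of the subfamily. Cyp2d2 stood at 1583, 1980, 2127, 1567 and 1786 CPM in CON, 861, 644, 833, 1596 and 888 CPM in HFD and 837, 1106, 669, 292 and 545 CPM in ZXD. HFD 4 again reached the CON range. The means were 1809 ± 245 CPM (SD, n = 5) in CON, 964 ± 366 in HFD and 690.0 ± 306 in ZXD, and the log2 fold change was -0.91 ± 0.30 (adjusted p = 0.0465) for HFD versus CON and -1.39 ± 0.31 (adjusted p = 0.00474) for ZXD versus CON. The HFD calls of Cyp2d1 and Cyp2d2 were the least stable of the subfamily. Each was lost on library totals, without a filter, with limma voom, with the replicate block and without both HFD 2 and HFD 5. Leaving out any 1 of 10 libraries ended the call of Cyp2d1 (CON 2 to 5, HFD 1 to 3, HFD 5, ZXD 3 and ZXD 5), and any 1 of 12 that of Cyp2d2 (CON 1 to 5, HFD 1 to 3, HFD 5, ZXD 1, ZXD 3 and ZXD 5). Over all alternatives the adjusted p ran from 0.0123 to 0.222 for Cyp2d1 and from 0.0138 to 0.246 for Cyp2d2.

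Cyp2d3 and Cyp2d4 fell in HFD and ZXD. Cyp2d3 stood at 666, 962, 1121, 829.5 and 917 CPM in CON, 303, 291, 329.8, 481 and 300.5 CPM in HFD and 398, 430.1, 266, 130.5 and 343 CPM in ZXD. HFD 4 stood apart from the other 4 HFD libraries but below every CON library. The means were 899 ± 168 CPM (SD, n = 5) in CON, 341 ± 79.5 in HFD and 313 ± 119.7 in ZXD, and the log2 fold change was -1.40 ± 0.27 (adjusted p = 0.00292) for HFD versus CON and -1.52 ± 0.27 (adjusted p = 0.00149) for ZXD versus CON. Cyp2d4, best known as a brain P450, had the lowest level of the subfamily and the largest fall. Cyp2d4 stood at 19.4, 48.9, 63.1, 41.1 and 43.1 CPM in CON, 11.5, 8.03, 10.6, 17.5 and 9.76 CPM in HFD and 8.81, 11.8, 5.94, 3.36 and 9.13 CPM in ZXD. All HFD and ZXD libraries lay below CON 1, the lowest of CON. The means were 43.1 ± 15.8 CPM (SD, n = 5) in CON, 11.5 ± 3.61 in HFD and 7.82 ± 3.26 in ZXD, and the log2 fold change was -1.91 ± 0.34 (adjusted p = 0.00171) for HFD versus CON and -2.47 ± 0.35 (adjusted p = 0.000304) for ZXD versus CON, which is a 3.75-fold and a 5.52-fold fall. Cyp2d5 fell in ZXD versus CON alone among its calls. Cyp2d5 stood at 268, 302, 315, 268 and 298 CPM in CON, 259, 183, 184, 339 and 214 CPM in HFD and 228, 256, 157, 112 and 172 CPM in ZXD. Means were 290.0 ± 21.2 CPM (SD, n = 5) in CON, 236 ± 65.2 in HFD and 185 ± 57.6 in ZXD, with log2 fold changes of -0.30 ± 0.21 (adjusted p = 0.33) for HFD versus CON and -0.65 ± 0.22 (adjusted p = 0.0317) for ZXD versus CON. The ZXD call was lost on library totals, with the replicate block and without any 1 of CON 2, CON 3, CON 5, ZXD 3, ZXD 4 and ZXD 5; over all alternatives its adjusted p ran from 0.0102 to 0.281. The share of Cyp2d5 in the Cyp2d counts was 8.33% ± 0.703 in CON, 13% ± 1.6 in HFD and 13.6% ± 2.19 in ZXD (SD, n = 5), and that of Cyp2d3 was 25.5% ± 1.59 in CON, 18.9% ± 1.81 in HFD and 22.2% ± 2.78 in ZXD (SD, n = 5). For Cyp2d5 every HFD and ZXD library had a larger share than every CON library, although its own level did not rise. Reads that fit more than 1 of these related genes may have been split or dropped.

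In the Cyp2b subfamily, Cyp2b3 fell in both comparisons with CON and Cyp2b2 was not called. Cyp2b3 is a constitutive member that does not respond to phenobarbital. Cyp2b3 stood at 832, 815, 845, 1104 and 710.4 CPM in CON, 216, 310.0, 183, 263 and 379.6 CPM in HFD and 281, 407, 257, 213 and 245 CPM in ZXD. The highest HFD or ZXD library stood below the lowest CON library. The means were 861 ± 146 CPM (SD, n = 5) in CON, 270.3 ± 77.6 in HFD and 281 ± 74.6 in ZXD, and the log2 fold change was -1.67 ± 0.22 (adjusted p = 0.000187) for HFD versus CON and -1.62 ± 0.22 (adjusted p = 0.000224) for ZXD versus CON, a 3.19-fold and a 3.07-fold fall. Cyp2b2 is the phenobarbital-inducible member and a classical target of the constitutive androstane receptor (Nr1i3). Cyp2b2 stood at 289, 33.4, 37.7, 40.3 and 24.4 CPM in CON, 94.1, 425, 162, 209 and 245 CPM in HFD and 161, 289, 107, 91.1 and 124 CPM in ZXD. CON 1 stood at the level of the treated libraries, far above the other 4 CON libraries. Means were 85 ± 114 CPM (SD, n = 5) in CON, 227 ± 124 in HFD and 154 ± 79.6 in ZXD, and log2 fold changes were 1.42 ± 0.64 (adjusted p = 0.124) for HFD versus CON and 0.86 ± 0.64 (adjusted p = 0.318) for ZXD versus CON. Without CON 1 both were called higher, at 2.76 (adjusted p = 0.00113) and 2.19 (adjusted p = 0.00302). HFD versus CON was also called on library totals and with limma voom. Cyp2b2 took 8.17% ± 9.84 in CON, 43.7% ± 10.1 in HFD and 34.2% ± 5.01 in ZXD (SD, n = 5) of the Cyp2b counts, and Cyp2b3 took almost all of the rest. CON 1, at 25.8%, came below the lowest ZXD library, at 29.4%. Cyp2b15 and Cyp2b21 had too few reads to be tested, at most 0.256 and 0.362 CPM in any library. No row has the symbol Cyp2b1, so this gene could not be analysed. Whether its reads were counted in another row was not tested.

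**Figure D5:**
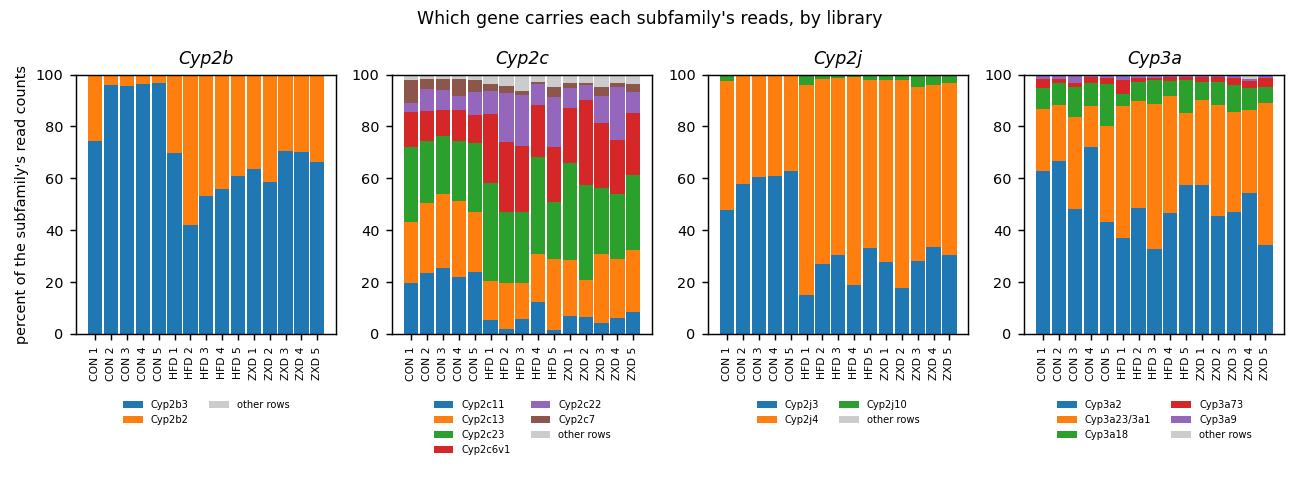
Bars give the percent of each subfamily's read counts in each library, coloured by gene, for Cyp2b, Cyp2c, Cyp2j and Cyp3a. In HFD and ZXD, Cyp2b2 holds 29.4% to 57.8% of the Cyp2b counts and Cyp2j3 15.1% to 33.5% of the Cyp2j counts; in CON these shares are 3.33% to 25.8% and 48.0% to 62.9%.

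In the Cyp2j subfamily, known for epoxidation of arachidonic acid, the 3 tested members differed in direction. Cyp2j3 stood at 87.6, 310.4, 290.2, 159 and 312 CPM in CON, 36.5, 88.6, 164, 73.6 and 87.2 CPM in HFD and 82.2, 48.5, 60.2, 44 and 84.1 CPM in ZXD. CON 1 and CON 4 were lower than the other CON libraries, HFD 2 and HFD 3 lay above CON 1, and every ZXD library lay below CON 1. The means of Cyp2j3 were 232 ± 103 CPM (SD, n = 5) in CON, 89.9 ± 46.2 in HFD and 63.8 ± 18.6 in ZXD, and its log2 fold change was -1.37 ± 0.39 (adjusted p = 0.0238) for HFD versus CON and -1.86 ± 0.39 (adjusted p = 0.00392) for ZXD versus CON. The HFD call was lost on library totals, without any 1 of CON 2, CON 3, CON 5, HFD 2 and HFD 5, and without both HFD 2 and HFD 5; over all alternatives its adjusted p ran from 0.00322 to 0.119. Cyp2j4 ranged over 90.6 to 225 CPM in CON, 171 to 368 CPM in HFD and 82.1 to 218 CPM in ZXD and was not called, with log2 fold changes of 0.71 ± 0.31 (adjusted p = 0.11) for HFD versus CON and 0.09 ± 0.31 (adjusted p = 0.852) for ZXD versus CON. Cyp2j10 rose in both comparisons from a low level. Cyp2j10 stood at 4.4, 1.52, 1.05, 1.86 and 3.07 CPM in CON, 10.1, 6.28, 7.75, 3.95 and 5.22 CPM in HFD and 6.47, 6.24, 10.3, 5.25 and 9.06 CPM in ZXD. All ZXD libraries lay above CON 1, the highest of CON, and HFD 4 lay below it. The means were 2.38 ± 1.35 CPM (SD, n = 5) in CON, 6.66 ± 2.38 in HFD and 7.46 ± 2.11 in ZXD, and the log2 fold change was 1.48 ± 0.36 (adjusted p = 0.0115) for HFD versus CON and 1.64 ± 0.36 (adjusted p = 0.00472) for ZXD versus CON. Cyp2j16 was not tested. Cyp2j3 took 58% ± 5.91 in CON, 24.9% ± 7.64 in HFD and 27.5% ± 5.91 in ZXD (SD, n = 5) of the Cyp2j counts, and Cyp2j4 took 41.1% ± 5.16 in CON, 73% ± 7.11 in HFD and 69.2% ± 6.6 in ZXD (SD, n = 5). For both genes the shares of the HFD and ZXD libraries lay outside the CON range. Since Cyp2j3 fell and Cyp2j4 was not called, the larger share of Cyp2j4 does not show a rise in its level.

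In family 1, Cyp1a1 is the polycyclic aromatic hydrocarbon oxidase that the aryl hydrocarbon receptor (Ahr) induces. Cyp1a1 stood at 0.897, 10.1, 9.31, 3.28 and 10.5 CPM in CON, 20.6, 3.91, 15.9, 11.6 and 39.9 CPM in HFD and 19, 17.9, 27, 32.7 and 19.6 CPM in ZXD. CON 1 and CON 4 were lowest with HFD 2, and every ZXD library lay above every CON library. The means were 6.81 ± 4.41 CPM (SD, n = 5) in CON, 18.4 ± 13.5 in HFD and 23.2 ± 6.41 in ZXD. The log2 fold change was 1.43 ± 0.57 (adjusted p = 0.0862) for HFD versus CON and 1.77 ± 0.58 (adjusted p = 0.0301) for ZXD versus CON. ZXD versus CON was called, but not without CON 4, ZXD 3 or ZXD 4, each left out alone; over all alternatives its adjusted p ran from 0.00666 to 0.069. HFD versus CON passed on library totals, with DESeq2 and without HFD 2. ZXD versus HFD was 0.34 ± 0.55 (adjusted p = 0.77), so no difference between the responses in HFD and ZXD was shown. Cyp1a2, the constitutive hepatic member that oxidises aromatic amines and caffeine, was not called. Cyp1a2 stood at 374, 887, 610.0, 818 and 405 CPM in CON, 449, 423, 348, 390.3 and 822 CPM in HFD and 391, 506, 614, 439 and 411 CPM in ZXD. The 3 groups overlapped. Means were 619 ± 233 CPM (SD, n = 5) in CON, 487 ± 191 in HFD and 472 ± 90.4 in ZXD, and log2 fold changes were -0.35 ± 0.28 (adjusted p = 0.381) for HFD versus CON and -0.39 ± 0.28 (adjusted p = 0.299) for ZXD versus CON. Cyp1b1, expressed mainly outside the liver, was not tested and reached 1.71 CPM in ZXD 4 and at most 0.357 CPM elsewhere. Of the other targets of Ahr fixed as a list, 4 of 6 were tested. Nqo1 rose in both comparisons with CON, at 1.43 ± 0.36 (adjusted p = 0.0143) and 1.22 ± 0.36 (adjusted p = 0.0194). Gsta2 and Tiparp fell in ZXD versus CON, at -1.24 ± 0.42 (adjusted p = 0.036) and -0.54 ± 0.15 (adjusted p = 0.0126). The median of the list was -0.49 in HFD versus CON and -0.54 in ZXD versus CON.

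In the Cyp2a subfamily neither tested member was called on the TMM scale. Cyp2a1 is the female-predominant and Cyp2a2 the male-predominant testosterone hydroxylase. Cyp2a1 stood at 607, 724, 598, 607 and 566 CPM in CON, 641, 774, 689, 783 and 484 CPM in HFD and 805, 864, 549, 311 and 601 CPM in ZXD. Means were 620.4 ± 60.5 CPM (SD, n = 5) in CON, 674 ± 122 in HFD and 626 ± 221 in ZXD, with log2 fold changes of 0.12 ± 0.23 (adjusted p = 0.727) for HFD versus CON and 0.01 ± 0.23 (adjusted p = 0.974) for ZXD versus CON. On library totals HFD versus CON passed, at 0.54 (adjusted p = 0.0359). Cyp2a2 stood at 939, 1103, 950.4, 1118 and 976 CPM in CON, 819, 761, 1104, 1014 and 734 CPM in HFD and 920.2, 944, 706, 412 and 645 CPM in ZXD. Here the means were 1017 ± 86.4 CPM (SD, n = 5) in CON, 886 ± 164 in HFD and 726 ± 218 in ZXD, with log2 fold changes of -0.20 ± 0.20 (adjusted p = 0.501) for HFD versus CON and -0.49 ± 0.20 (adjusted p = 0.0795) for ZXD versus CON. The second passed with DESeq2 and without ZXD 2, and ZXD 4 was the lowest library for both genes. Cyp2a3 had at most 0.148 CPM. Cyp2e1, which oxidises ethanol and acetone, was not called. Cyp2e1 stood at 6820, 12453, 9554, 7562 and 9080 CPM in CON, 9103, 6874, 7656, 8848 and 7840 CPM in HFD and 10347, 11448, 4104, 2963 and 5444 CPM in ZXD. ZXD 1 and ZXD 2 stood with the highest CON libraries, and ZXD 3, ZXD 4 and ZXD 5 below every other library. Means were 9094 ± 2180 CPM (SD, n = 5) in CON, 8064 ± 912 in HFD and 6861 ± 3808 in ZXD, and log2 fold changes were -0.17 ± 0.32 (adjusted p = 0.72) for HFD versus CON and -0.41 ± 0.32 (adjusted p = 0.352) for ZXD versus CON. The 95% intervals of the log2 fold change ran from -0.87 to 0.53 against CON for HFD, and for ZXD from -1.11 to 0.29, so changes within these bounds are not excluded.

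Among the subfamilies with a single tested member, Cyp2f4, Cyp2r1 and Cyp2t1 fell in both comparisons with CON. Cyp2f4 is best known as a naphthalene-oxidising P450 of the lung. Cyp2f4 stood at 52.5, 48.4, 53.5, 64.2 and 48.5 CPM in CON, 16.4, 14.4, 13.9, 22.6 and 8.68 CPM in HFD and 10.3, 15.4, 14.1, 7.57 and 15.4 CPM in ZXD. CON libraries stood close together and far above the rest. The means were 53.4 ± 6.45 CPM (SD, n = 5) in CON, 15.2 ± 5.04 in HFD and 12.5 ± 3.48 in ZXD, and the log2 fold change was -1.81 ± 0.23 (adjusted p = 0.000154) for HFD versus CON and -2.09 ± 0.24 (adjusted p = 4.93e-05) for ZXD versus CON, a 3.51-fold and a 4.27-fold fall. Cyp2t1 showed no overlap with CON either. Cyp2t1 stood at 53.2, 27.5, 34.2, 50.5 and 29.3 CPM in CON, 13.5, 15.8, 15.1, 15.3 and 17.3 CPM in HFD and 12.7, 14.1, 15.1, 8.48 and 13.8 CPM in ZXD. The means were 38.9 ± 12.1 CPM (SD, n = 5) in CON, 15.4 ± 1.38 in HFD and 12.9 ± 2.58 in ZXD, with log2 fold changes of -1.34 ± 0.20 (adjusted p = 0.000489) for HFD versus CON and -1.60 ± 0.20 (adjusted p = 0.00011) for ZXD versus CON. Cyp2r1 is a vitamin D hydroxylase of the liver. Cyp2r1 stood at 15.5, 9.54, 9.69, 13.5 and 7.67 CPM in CON, 3.5, 2.86, 4.14, 6.13 and 4.27 CPM in HFD and 5.3, 6.63, 2.73, 2.26 and 4.13 CPM in ZXD. Its highest HFD and ZXD libraries lay below its lowest CON library. The means were 11.2 ± 3.22 CPM (SD, n = 5) in CON, 4.18 ± 1.23 in HFD and 4.21 ± 1.81 in ZXD, and the log2 fold change was -1.42 ± 0.30 (adjusted p = 0.00551) for HFD versus CON and -1.41 ± 0.30 (adjusted p = 0.0042) for ZXD versus CON. Cyp2u1, a long-chain fatty acid hydroxylase, was low and was not called. Cyp2u1 stood at 1.17, 3.03, 1.33, 2.13 and 1.7 CPM in CON, 0.906, 3.14, 1.18, 1.16 and 3.32 CPM in HFD and 2.41, 1.48, 2.03, 3.54 and 1.01 CPM in ZXD. Means were 1.87 ± 0.747 CPM (SD, n = 5) in CON, 1.94 ± 1.18 in HFD and 2.09 ± 0.966 in ZXD, and log2 fold changes were 0.05 ± 0.45 (adjusted p = 0.945) for HFD versus CON and 0.16 ± 0.44 (adjusted p = 0.808) for ZXD versus CON. Cyp2s1 ranged over 0.475 to 2.04 CPM in CON, 0.906 to 2.73 CPM in HFD and 1.72 to 4.35 CPM in ZXD and was not called. Cyp2g1 had no read in any library and Cyp2w1 at most 0.0699 CPM, and neither was tested; a count of 0 allows up to 3 counts, or 0.285 CPM at the shallowest scale, for counting error alone.

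The decoction was compared with saline on the same feed in ZXD versus HFD. No member was called in edgeR's quasi-likelihood test, in which 0 of 13163 genes were called and 2167 had an unadjusted p under 0.05. Of the members, 3 had an unadjusted p under 0.05: Cyp2c22 at -0.96 ± 0.32 (adjusted p = 0.186), Cyp3a71-ps at -1.77 ± 0.66 (adjusted p = 0.213) and Cyp2c12 at -1.29 ± 0.52 (adjusted p = 0.236). Without ZXD 2 the value of Cyp2c12 was -1.91 (adjusted p = 0.111). DESeq2 called 342 genes (2.6%) and limma voom 0, and no member was among them. No member's ZXD libraries lay wholly above or below its HFD libraries, against 2.14% of all genes higher and 1.53% lower. The estimate was negative for 30 of the 37 members, with a median of -0.28 against 0.02 over all genes tested. Without ZXD 4 the count was 26 and the median -0.14. Without HFD 4 they were 28 and -0.20, and without ZXD 2 they were 32 and -0.45, with 10 members at an unadjusted p under 0.05. The 7 members with the most negative mean of the 2 log2 fold changes against CON were Cyp3a85-ps, Cyp3a71-ps, Cyp2c11, Cyp2d4, Cyp2c7, Cyp2f4 and Cyp2b3. Beside the value of Cyp3a71-ps above, the difference between ZXD and HFD was -1.73 ± 0.90 (adjusted p = 0.346) for Cyp3a85-ps, -0.07 ± 0.51 (adjusted p = 0.954) for Cyp2c11 and -0.56 ± 0.33 (adjusted p = 0.404) for Cyp2d4. It was -0.37 ± 0.41 (adjusted p = 0.654) for Cyp2c7, -0.28 ± 0.23 (adjusted p = 0.533) for Cyp2f4 and 0.05 ± 0.21 (adjusted p = 0.915) for Cyp2b3. Without HFD 4 the value was -0.81 for Cyp3a85-ps and 0.65 for Cyp2c11. The 95% interval of Cyp2c11 ran from -1.17 to 1.03 and that of Cyp2b3 from -0.41 to 0.52. The missing calls do not show that these levels were equal. Cyp3a62 at 0.03 ± 0.32 (adjusted p = 0.972) and Cyp2j10 at 0.16 ± 0.34 (adjusted p = 0.829), which had risen against CON, were likewise not called.

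The proteins that serve the P450s were described through lists. Of 6 electron donors and P450 partners, 3 fell in HFD versus CON and 4 in ZXD versus CON, and none rose; the list's median log2 fold change was -0.76 and -1.09, against 0.02 and 0.03 over all genes tested. Por, the reductase that feeds all of these enzymes, stood at 388, 1071, 934, 910.0 and 857 CPM in CON, 359, 313, 578, 342 and 306 CPM in HFD and 377, 424, 260.4, 179 and 414 CPM in ZXD. CON 1 lay far below the other CON libraries, among the HFD and ZXD libraries. The log2 fold change of Por was -1.13 ± 0.29 (adjusted p = 0.0146) in HFD versus CON and -1.33 ± 0.29 (adjusted p = 0.00451) in ZXD versus CON. Cyb5b, a mitochondrial cytochrome b5, fell by 1.52 and 1.22 on the log2 scale (adjusted p = 0.00082 and 0.00271). Cyb5a, the other cytochrome b5 of the list, was not called, at -0.21 ± 0.27 (adjusted p = 0.590) and -0.60 ± 0.27 (adjusted p = 0.102). Pgrmc2 was not called in either comparison, at 0.25 and 0.11. Among 12 genes of haem synthesis and breakdown, 5 fell and 1 rose in HFD versus CON, and 4 fell and 2 rose in ZXD versus CON, with medians of -0.32 and -0.36. Alas1, the rate-limiting enzyme of haem synthesis, stood at 558, 665, 738, 1032 and 709 CPM in CON, 218, 129, 259.7, 283 and 141 CPM in HFD and 253, 298, 182, 111 and 293 CPM in ZXD. No HFD or ZXD library reached the lowest CON library. Its log2 fold change was -1.85 ± 0.29 (adjusted p = 0.000758) in HFD versus CON and -1.70 ± 0.29 (adjusted p = 0.00114) in ZXD versus CON. Hmox1, the inducible haem oxygenase that breaks haem down, rose by 1.12 ± 0.38 (adjusted p = 0.0494) and 1.58 ± 0.38 (adjusted p = 0.00768). Hmox1 is also abundant in macrophages, whose markers rose as given above, and their part in it was not tested.

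Of 15 tested receptors and factors that regulate these genes, 5 fell and 2 rose in HFD versus CON, and 8 fell and 1 rose in ZXD versus CON, with medians of -0.58 and -0.56. Onecut1, a liver-enriched homeobox factor, stood at 138, 89.2, 101, 90.9 and 171 CPM in CON, 9.26, 2.37, 1.26, 5.39 and 1.29 CPM in HFD and 9.08, 2.1, 4.82, 2.5 and 5 CPM in ZXD. Its HFD and ZXD libraries were all far below CON. The log2 fold change was -4.90 ± 0.56 (adjusted p = 7.06e-05) in HFD versus CON and -4.64 ± 0.55 (adjusted p = 8.72e-05) in ZXD versus CON. Cebpa, Foxa1 and Nr3c1, the glucocorticoid receptor, fell in both, with Cebpa at -0.95 ± 0.23 (adjusted p = 0.0102) and -1.27 ± 0.23 (adjusted p = 0.0016). Nr1i2 and Nr1i3 fell in ZXD versus CON, at -0.74 ± 0.26 (adjusted p = 0.0377) and -1.19 ± 0.41 (adjusted p = 0.0383), and were not called in HFD versus CON, at -0.58 ± 0.26 (adjusted p = 0.113) and -0.24 ± 0.41 (adjusted p = 0.696). Neither was called in ZXD versus HFD. The groups overlapped for Nr1i3, at 57.2 to 307 CPM in CON, 81.1 to 322 CPM in HFD and 62.7 to 112 CPM in ZXD, and CON 1 was the lowest library. Nfe2l2, the factor of the oxidative stress response, rose in both, at 0.62 ± 0.11 (adjusted p = 0.00143) and 0.40 ± 0.11 (adjusted p = 0.0119). Ahr rose in HFD versus CON, at 0.65 ± 0.21 (adjusted p = 0.038). Of 15 tested genes of growth hormone signalling and sex-dependent liver expression, 10 fell in each comparison with CON, none rose in HFD and 2 rose in ZXD, with medians of -1.84 and -1.67. Igf1, the growth hormone-dependent growth factor, fell at -2.41 ± 0.44 (adjusted p = 0.00209) and -1.89 ± 0.43 (adjusted p = 0.00544). Ghr, the growth hormone receptor, fell at -1.17 ± 0.32 (adjusted p = 0.0186) and -1.10 ± 0.32 (adjusted p = 0.0165). Socs2 and Cish, which growth hormone induces through Stat5, fell in both, with Socs2 at -2.42 ± 0.39 (adjusted p = 0.000848) and -1.67 ± 0.37 (adjusted p = 0.0052). Obp3 and Car3, transcripts abundant in male rat liver, also fell in both. Lower levels in this list were not confined to male-abundant transcripts. Srd5a1 ranged over 220 to 414 CPM in CON, 33.2 to 62.4 CPM in HFD and 23.0 to 67.7 CPM in ZXD. Prlr had means of 71.3 CPM in CON, 19.9 in HFD and 23.4 in ZXD. Jak2 and Stat5b rose in ZXD versus CON, at 1.41 ± 0.30 (adjusted p = 0.00383) and 0.33 ± 0.10 (adjusted p = 0.0274). Some P450 members are known for sex-dependent expression. Of the male-predominant Cyp2c11, Cyp2c13, Cyp2a2, Cyp3a2 and Cyp3a18, the Cyp2c genes fell and the other 3 were not called. Of the female-predominant Cyp2c7, Cyp2c12, Cyp2a1 and Cyp3a9, Cyp2c7 fell in both comparisons and Cyp3a9 in ZXD versus CON. This grouping was made after the values were seen and does not sort every member by sex. Cyp3a62, which rose in both comparisons with CON (1.83 and 1.86), was placed in neither set.

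Several P450 genes differ in level across the liver lobule, with Cyp2e1 and Cyp1a2 known as pericentral. Of 9 tested pericentral genes outside the P450s, 3 fell and 1 rose in each comparison with CON, with medians of 0.07 and -0.30. Of 11 periportal genes 2 fell and none rose in each, with medians of -0.73 and -0.39. Their summed levels were 922 to 1692 CPM in CON, 683 to 989 CPM in HFD and 726 to 1279 CPM in ZXD for the pericentral list and 23464 to 28936 CPM in CON, 11339 to 19415 CPM in HFD and 9420 to 26695 CPM in ZXD for the periportal list. No gene of any list was called in ZXD versus HFD.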

How the data were processed

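The authors deposited 1 table of read counts and FPKM values for 21576 genes in 15 liver libraries, per the file headers. RNA was purified with Trizol and prepared with standard Illumina protocols, per the labels. Of tools, the submitters' processing notes give edgeR alone and no role for it. How reads were aligned and counted, with which strand setting, annotation and build, is not given in the sources used here. Therefore the table's coordinates are not printed, and reads from near-identical or antisense genes cannot be told apart. The deposited FPKM equalled the count divided by length and library total, and served only to compare levels between genes. Gene lengths are those of the deposited table.

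Counts were analysed with edgeR 4.0.16 in R 4.3.3: TMM factors, filterByExpr by group (minimum count 10, minimum total 15; 13163 genes), and 1 robust quasi-likelihood fit of all 15 libraries (the only term was the group; 12 residual degrees of freedom). Tested genes held at least 99.8% of each library's counts. The p-values were adjusted by Benjamini-Hochberg, separately in each comparison. Alternatives used limma 3.58.1 (voom), DESeq2 1.42.0, other scales and filters, a replicate block and libraries left out. Members with full values were those called with a higher-group mean of 5 CPM or more, plus 26 fixed symbols. Members and lists were chosen with earlier results of these data known.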

Additional observations from a re-analysis of the deposited data

Results flagged for a closer look

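Of 96 sets of 5 libraries examined for a library that stands apart (32 tested named genes in 3 groups, by Dixon's test at the 95% level), 3 had one, and chance alone marks about 1 in 20 such sets. Cyp2b2 stood at 289 CPM in CON 1 and at 24.4 to 40.3 CPM in the other CON libraries. Cyp2a1 stood at 724 CPM in CON 2 and at 566 to 607 CPM in the other CON libraries. Cyp2d3 stood at 481 CPM in HFD 4 and at 291 to 330 CPM in the other HFD libraries.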

How the results depend on the processing

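Of the 34 called results of the named genes, 27 kept their call and direction in all 25 alternatives. The other 7 were the HFD versus CON calls of Cyp2c24, Cyp2d1, Cyp2d2 and Cyp2j3 and the ZXD versus CON calls of Cyp1a1, Cyp2d5 and Cyp3a9, and the cause was not tested. The number of members called higher in HFD versus CON moved from 3 to 10 with library totals as the scale, which leaves out the TMM factors. Of all genes, 40.9% were called higher on that scale, against 10.0% in the main fit. With DESeq2 the number was 5, and the share of all genes called higher in that test was not counted. In either direction DESeq2 called 19 members and 28.2% of all genes, against 17 members and 21.0% in the main fit. In ZXD versus CON the number called higher moved from 3 to 6 with library totals, where 45.9% of all genes were, against 17.9%. Leaving out each library gave 2 to 4 members higher and 11 to 14 lower in HFD versus CON, where 12.9% to 24.6% of all genes were called. In ZXD versus CON these refits gave 2 to 4 higher and 14 to 20 lower, where 23.1% to 35.1% of all genes were called. In ZXD versus HFD they gave 0, where at most 0.0532% of all genes were called. With the replicate number as a block, 3 members were called higher and 12 lower in HFD versus CON, where 14.5% of all genes were called. The block gave 3 higher and 14 lower in ZXD versus CON, where 26.3% of all genes were called. In ZXD versus HFD it gave 0, where 0% of all genes were called. The labels do not say what a shared number stands for, and the numbers were not taken as a pairing: deviations of same-numbered libraries correlated above 0.1 in 3 of 5 pairs of HFD and CON, 1 of 5 of ZXD and HFD and 0 of 5 of ZXD and CON, with a range of -0.55 to 0.26, and 5 of 10, 0 of 10 and 0 of 10 libraries correlated best with their own number. With an absolute log2 fold change of at least 1 also required, 12 members fell in HFD versus CON and 15 in ZXD versus CON, and the 3 called higher in each comparison all stayed. The share of all genes that passed this rule was not counted. No called result changed sign. Results that were not called changed sign as follows, each with its log2 fold change. With library totals as the scale, it was Cyp1a2 (0.090), Cyp2a2 (0.22), Cyp2c23 (0.058), Cyp2d5 (0.12) and Cyp2e1 (0.25) in HFD versus CON; Cyp2r1 (-0.015) in ZXD versus HFD; Cyp1a2 (0.047) in ZXD versus CON. Without a filter on low counts, it was Cyp2c12 (-0.00017) in HFD versus CON. With limma voom, it was Cyp2u1 (-0.093) in HFD versus CON; Cyp1a2 (0.013), Cyp2c11 (0.31) and Cyp2r1 (-0.087) in ZXD versus HFD; Cyp2a1 (-0.059) and Cyp3a23/3a1 (-0.088) in ZXD versus CON. Without both HFD 2 and HFD 5, it was Cyp2u1 (-0.79) in HFD versus CON; Cyp1a2 (0.25), Cyp2c13 (0.12), Cyp2c7 (0.11) and Cyp2r1 (-0.13) in ZXD versus HFD. With the replicate block, it was Cyp2c11 (0.24) and Cyp2r1 (-0.020) in ZXD versus HFD; Cyp2a1 (-0.024) in ZXD versus CON. With relative log expression factors, it was Cyp2r1 (-0.0041) in ZXD versus HFD. With DESeq2, it was Cyp2r1 (-0.0052) in ZXD versus HFD. With only the 2 groups compared, it was Cyp2r1 (-0.017) and Cyp3a62 (-0.00071) in ZXD versus HFD. Leaving out 1 library at a time changed the sign for results whose log2 fold change ran, over the 15 refits, as follows: in HFD versus CON, Cyp2c12 (-0.23 to 0.53) and Cyp2u1 (-0.23 to 0.32); in ZXD versus HFD, Cyp1a2 (-0.16 to 0.23), Cyp2a1 (-0.28 to 0.063), Cyp2b3 (-0.16 to 0.21), Cyp2c11 (-0.31 to 0.65), Cyp2c13 (-0.21 to 0.13), Cyp2c6v1 (-0.49 to 0.0045), Cyp2d3 (-0.30 to 0.074), Cyp2r1 (-0.25 to 0.19), Cyp2u1 (-0.16 to 0.40), Cyp3a2 (-0.58 to 0.059) and Cyp3a62 (-0.14 to 0.12); in ZXD versus CON, Cyp2a1 (-0.15 to 0.18), Cyp2c6v1 (-0.070 to 0.40), Cyp2u1 (-0.11 to 0.40) and Cyp3a23/3a1 (-0.23 to 0.29). A count of 3 corresponds to 0.183 to 0.285 CPM, which limits what can be read from Cyp2c24, Cyp3a71-ps, Cyp3a85-ps and the 7 untested members.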
